A study of Populus davidiana with 6 samples.

Results

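The most abundant transcripts of these aspen leaves were defined as those of loci with at least 500 FPKM (sequenced fragments divided by transcript length and by the library's mapped fragments) in every one of 6 leaf samples. A locus also had to span at least 300 bases and to carry an identifier starting with POPTR_, the prefix of gene models of the black cottonwood Populus trichocarpa. These conditions were met by 129 of the 40537 loci listed, and by 129 of the 19175 such loci of that size that were abundant enough to be tested. The members were chosen by their FPKM in each sample, so their high levels are a description and not a finding. The contrast between treatments was not used to choose them, but a locus with under 500 FPKM in any sample of either group could not be a member.

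The samples were leaves of Populus davidiana cultivar Palgong1, an aspen classed as drought sensitive in the labels, grown in sterile culture to an age of about 6 weeks. The air-dried group held 3 samples from plants that were lifted from the medium, rinsed with sterile water and then kept in the air for about 10 minutes. The control group held 3 samples from control plants of the same cultivar, whose handling is not described further. The question was how the leaf transcriptome responds to this short drying, and no label says whether replicates were separate plants, so p-values reflect the spread among these 6 samples only, and that spread may be technical.

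In leaves of flowering plants, much of the messenger RNA comes from few nuclear genes. Those for the small subunit of Rubisco, the enzyme that fixes carbon dioxide, and for the light-harvesting chlorophyll-binding proteins are among the best known. Transcripts of the chloroplast genome mostly lack the poly(A) tail on which these libraries were selected, so they are largely missed by such a selection. The files pair no identifier with a gene name, so no role is given to any locus here, and the leaf label could not be checked against marker genes.

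FPKM divides by transcript length, so levels can be set side by side between loci, with less certainty where a very short transcript carries the signal. At loci under 300 bases with over 1 FPKM in every sample, the median log2 FPKM ran from 5.16 to 10.2 between libraries. Mean FPKM over the 6 samples ran from 569 to 53563 across the members, with a median of 1342 and quartiles of 831 and 2244. Of the 129 members, 69 had at least 1000 FPKM in every sample, 28 at least 2000, 4 at least 5000 and 1 at least 10000. They lay on all 19 chromosomes, with 20 on chromosome 1, 16 on chromosome 5 and 1 on chromosome 12. They were split over the strands, with 62 on the plus and 67 on the minus strand.

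The rule did not take in every abundant locus. Another 42 loci had at least 500 FPKM in every sample. Of these, 25 spanned under 300 bases and 17 were longer loci without a POPTR_ identifier, 15 of them with a known transcript. Just inside the threshold were POPTR_0010s16160.r1, whose lowest sample had 512 FPKM, POPTR_0002s01320.r1 with 515 and POPTR_0001s40700.r1, also with 515. Just outside were POPTR_0016s13150.r1, whose lowest sample had 497 FPKM, POPTR_0012s09570.r1, also with 497, and POPTR_0008s12890.r1 with 488. POPTR_0016s13150.r1 missed the threshold in a single sample: it had 22556, 3154 and 3171 FPKM in air-dried replicates 1, 2 and 3, and 12655, 21588 and 497 FPKM in control replicates 1, 2 and 3. The threshold therefore separates it from the members by its value in control replicate 3 alone.

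Members were shorter and better annotated than the 19046 other tested POPTR_ loci of at least 300 bases. The median span was 2315 bases in members and 3399 bases in the others, and 14.0% of members spanned under 1000 bases, against 7.53% of the others. A single transcript was listed at 31.0% of members and at 25.5% of the others. Known transcripts, those marked as known in the files, carried a median of 98.3% of a member's FPKM and 74.5% of another locus's. These are descriptions. Sizes in bases, here and below, of loci and of transcripts, run from start to end on the genome, introns included. FPKM divides by transcript length, so that length is part of the measure that chose the members. How far span follows it was not tested.

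The highest level belonged to POPTR_0001s41080.r1 (chromosome 1, 40733379 to 40734200, minus strand). Coordinates are those of the deposited files, and no source used here names their genome build. This locus had 83733, 42842 and 42073 FPKM in the air-dried samples and 69515, 38725 and 44488 FPKM in the control samples. It led all members in 5 of the 6 samples, and replicate 1 was the highest of both groups, so the groups overlapped. Its single transcript of 822 bases was new, that is, added by the authors' assembly. It shared 745 bases with another member on the opposite strand, POPTR_0001s41080, a single known transcript.

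POPTR_0001s41080 had 1047, 1794 and 2013 FPKM in air-dried leaves and 856, 811 and 2302 FPKM in control leaves. It was lowest in air-dried replicate 1 and control replicates 1 and 2. The overlapping POPTR_0001s41080.r1 was highest in the first 2 of these libraries and lowest in control replicate 2. The kit used for the libraries keeps no strand information, so reads of overlapping loci cannot be told apart by strand, and the division of reads between this pair is uncertain.

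The second highest mean was that of POPTR_0007s04380.r2 (chromosome 7, 2715273 to 2719929, minus strand), with 26133, 5288 and 5093 FPKM in air-dried leaves and 125926, 13496 and 3086 FPKM in control leaves. It was the highest member in control replicate 1 and had the widest range of all members, 40.8-fold between the highest and the lowest sample. A known transcript of 156 bases carried 48.6% of its FPKM and a new transcript of 4657 bases the other 51.4%. POPTR_0007s04380.r1, a single new transcript on the plus strand, overlapped it by 4655 bases. It had 6892, 1342 and 1860 FPKM in air-dried leaves and 29834, 2781 and 1005 FPKM in control leaves. Both loci were highest in control replicate 1, next in air-dried replicate 1, then in control replicate 2, and lowest in control replicate 3.

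POPTR_0003s01450.r1 (chromosome 3, 1333975 to 1343044, plus strand) had 10670, 11213 and 10123 FPKM in air-dried leaves and 19290, 14621 and 8887 FPKM in control leaves. Its air-dried samples were close together and lay inside the range of the controls. A new transcript of 7630 bases carried 89.2% of its FPKM. POPTR_0017s05680.r1 (chromosome 17, 4439583 to 4447094, minus strand), a single new transcript of 7512 bases, had 10723, 1288 and 2298 FPKM in air-dried leaves and 41662, 8212 and 1086 FPKM in control leaves. Its highest and lowest samples, both controls, lay 38.4-fold apart. A locus without a POPTR_ identifier on the opposite strand, with a mean of 76.5 FPKM, overlapped all 7512 bases.

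Known transcripts led most of the following members. POPTR_0010s20810.r1 had 7552, 6662 and 5935 FPKM in air-dried leaves and 9986, 10370 and 7439 FPKM in control leaves, and the groups overlapped by a single pair, air-dried replicate 1 and control replicate 3. POPTR_0011s02770 had 6881, 6727 and 5508 FPKM in air-dried leaves and 6160, 6903 and 5235 FPKM in control leaves, and both groups covered nearly the same range. POPTR_0004s09910 had 6788, 4977 and 4550 FPKM in air-dried leaves and 7233, 7939 and 4861 FPKM in control leaves. POPTR_0006s27030 had 6845, 4011 and 3478 FPKM in air-dried leaves and 8227, 7214 and 3615 FPKM in control leaves. In both of these, air-dried replicate 1 and control replicates 1 and 2 were the 3 highest samples.

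POPTR_0014s17070.r1 was the steadiest of the 15 members with the highest means, with 4931, 5291 and 4894 FPKM in air-dried leaves and 5157, 5081 and 5106 FPKM in control leaves. Its highest sample was 1.08 times its lowest. POPTR_0010s16050, the shortest member at 505 bases, had 5807, 3051 and 2565 FPKM in air-dried leaves and 6066, 5218 and 2411 FPKM in control leaves. POPTR_0009s11480.r1 had 5889, 2426 and 2718 FPKM in air-dried leaves and 6253, 4660 and 1629 FPKM in control leaves, with 83.6% of its FPKM on a new transcript of 364 bases. Both again had air-dried replicate 1 and control replicates 1 and 2 as their 3 highest samples.

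The remaining members of the top 15 differed by less than 1.5 times over the 6 samples. POPTR_0005s15660.r1 had 3379, 4177 and 4893 FPKM in air-dried leaves and 3477, 3592 and 4010 FPKM in control leaves. POPTR_0019s09140 had 4237, 3937 and 3652 FPKM in air-dried leaves and 3852, 3946 and 3500 FPKM in control leaves. POPTR_0015s07340.r1 had 4275, 3809 and 3483 FPKM in air-dried leaves and 4122, 3884 and 3516 FPKM in control leaves. The groups overlapped in all 3 of these loci.

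**Figure D1:**
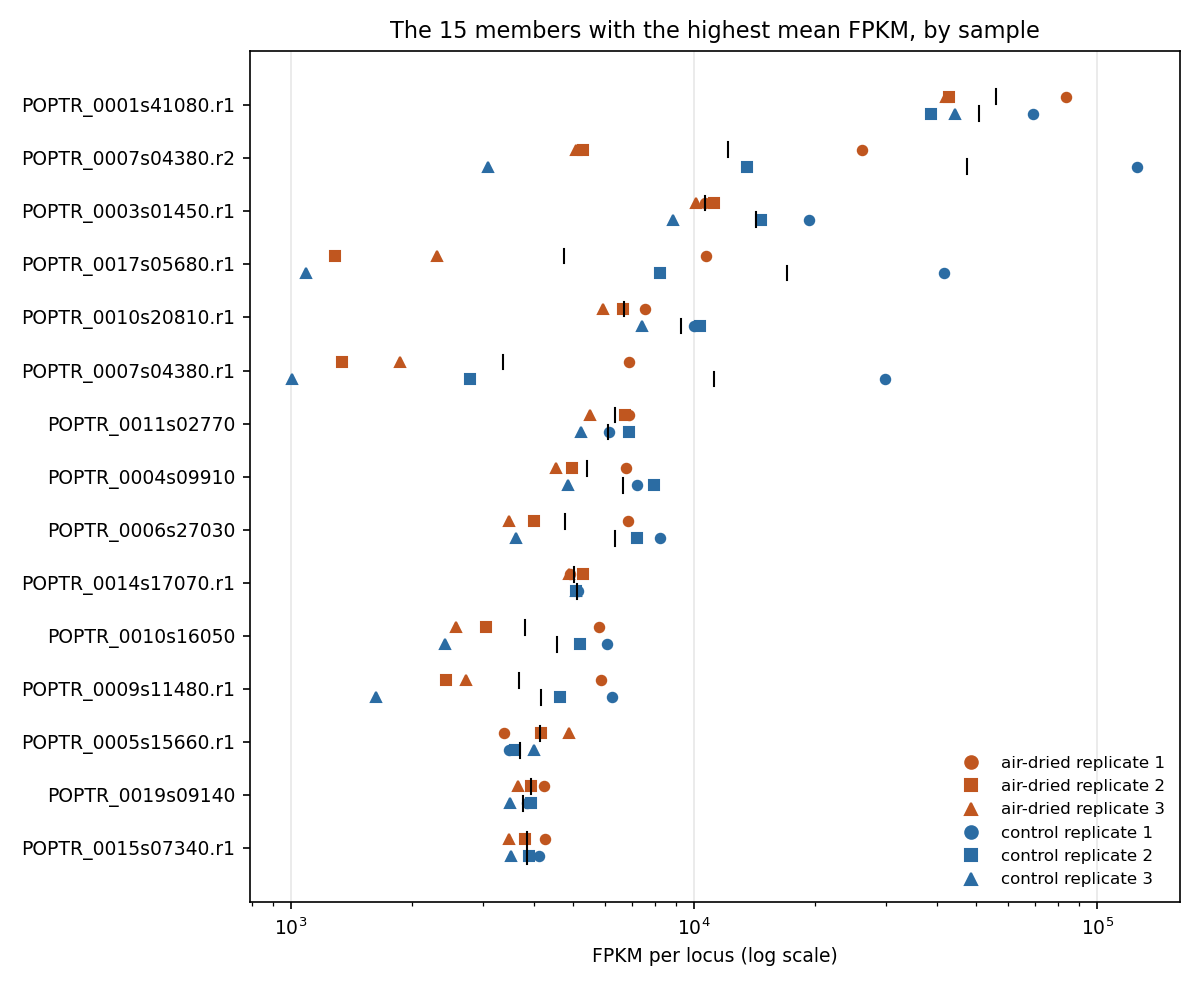
FPKM per locus on a log axis for the 15 members with the highest mean FPKM, 1 line per locus, with a point for each of the 3 air-dried and 3 control samples and a tick at each group's mean. POPTR_0001s41080.r1 stands apart on the right, and the points of POPTR_0007s04380.r2, POPTR_0017s05680.r1 and POPTR_0007s04380.r1 spread by 29.7-fold to 40.8-fold while those of POPTR_0014s17070.r1 lie on each other.

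The summed FPKM of the members was 359782, 257265 and 247685 in the air-dried samples and 522531, 307324 and 251712 in the control samples. This averaged 288244 ± 62139 in air-dried leaves and 360523 ± 143032 in control leaves (SD, n = 3 each), and the groups overlapped. The ratio of the means, air-dried over control, was 0.800, and without control replicate 1 it was 1.03, so this library set the direction. A lower level per cell and fewer cells of a type cannot be told apart in such bulk samples. The 10 highest members of a sample held 47.8%, 37.0% and 36.4% of the members' sum in air-dried leaves and 62.1%, 38.3% and 36.0% in control leaves. Control replicate 1 had the highest share.

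Loci under 300 bases held 75.4%, 87.3% and 87.4% of all FPKM in air-dried leaves and 93.0%, 89.1% and 42.8% in control leaves. Of the rest alone, the FPKM at loci of at least 300 bases, the members held 28.6%, 26.4% and 25.4% in air-dried leaves. In control leaves they held 2.17%, 25.9% and 26.7% of it. In control replicate 1, 13 loci of that size, POPTR_0007s04380.r2 among them, had at least 100000 FPKM each. The total over loci of that size was 24097657 FPKM there, against 942883 to 1258024 FPKM in the other 5 samples. The size factor, a median ratio over loci of that size, was 1.02 in control replicate 1 and 0.981 to 1.01 in the others. With the highest loci left out, its sum was 1.05 times the mean of the samples, against 0.951 to 1.03 in the others. Its typical locus was thus at a like level, and the excess in its total lay in the highest loci. Why those were so high was not tested, which limits what its share and the ratio of 0.800 mean. The median member differed less between samples, at 1341, 1221 and 1211 FPKM in air-dried leaves and 1480, 1394 and 1209 FPKM in control leaves. Among the 129 highest POPTR_ loci of that size in a sample, members took 89, 108 and 108 places in air-dried leaves and 70, 104 and 115 places in control leaves.

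Most members were steady across all 6 samples. The rule left out loci that fell low in any sample, so this steadiness is partly set by the selection and is a description. The highest sample was less than 1.5 times the lowest in 86 of the 129 members and less than 1.25 times in 43, with a median of 1.33. It was at least 2 times the lowest in 21 members and at least 10 times in 3. The 5 members with the smallest spread within groups were POPTR_0001s26020.r1, POPTR_0005s11500, POPTR_0017s06920.r1, POPTR_0018s11820.r1 and POPTR_0010s05530.r1, and the SD of log2(FPKM + 1) within groups ran from 0.0124 to 0.0310 among them.

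Steady members could still sit at different levels in the groups. POPTR_0001s26020.r1 (chromosome 1, 25111507 to 25116662) had 1014, 1038 and 1024 FPKM in air-dried leaves and 1210, 1202 and 1205 FPKM in control leaves. POPTR_0005s11500 (chromosome 5, 8310541 to 8313353) had 769, 779 and 772 FPKM in air-dried leaves and 910, 940 and 940 FPKM in control leaves. POPTR_0017s06920.r1 (chromosome 17, 5302805 to 5306806) had 547, 553 and 547 FPKM in air-dried leaves and 703, 723 and 684 FPKM in control leaves. In all 3 every air-dried sample was below every control sample, by log2 fold changes of -0.23, -0.27 and -0.36. None passed the test described below, with limma adjusted p of 0.307, 0.211 and 0.0872. They were picked for a small spread within groups, so their groups can lie apart even at a small difference. Every air-dried sample was below every control at 24.0% of all members and at 13.3% of all tested loci.

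POPTR_0018s11820.r1 had 621, 633 and 598 FPKM in air-dried leaves and 651, 640 and 642 FPKM in control leaves. POPTR_0010s05530.r1 had 920, 910 and 885 FPKM in air-dried leaves and 844, 880 and 877 FPKM in control leaves. In both the groups differed by under 10% of the level and did not overlap, which the choice by small spread makes likely. The 5 members with the largest spread were the 3 with ranges of at least 10-fold given above, POPTR_0009s11480.r1 and POPTR_0001s30310.r1. POPTR_0001s30310.r1 had 3322, 1221 and 1305 FPKM in air-dried leaves and 6632, 2718 and 1193 FPKM in control leaves.

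The same 3 libraries were high at many members. At the 295 loci under 300 bases with over 1 FPKM in every sample, the median log2 FPKM was 8.63, 5.62 and 5.65 in the air-dried samples and 10.2, 7.50 and 5.16 in the control samples. Air-dried replicate 1 and control replicates 1 and 2 were therefore the 3 highest at short loci, and they were set against the other 3 libraries at the members. All 3 lay above the other 3 at 45 members, or 34.9%, while at all 22835 tested loci this held for 10.6%. All 3 lay below the other 3 at 4 members, or 3.10%, against 5.88% of all tested loci. At tested loci of at least 300 bases the shares were 9.8% above and 6.05% below.

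This share was higher in bands of higher expression. Among tested POPTR_ loci of at least 300 bases whose lowest sample had 1 to 10 FPKM, the 3 libraries lay above the others at 6.43%. The share was 10.6% from 10 to 50 FPKM, 18.5% from 50 to 100, 24.2% from 100 to 200, 28.5% from 200 to 500 and 34.9% at the members. At 8 members the 3 libraries were at least 2-fold higher on average. The 4 members at which they were lower were POPTR_0005s15660.r1, POPTR_0001s41080, POPTR_0011s11390.r1 and POPTR_0008s18230. Among the 18 members under 1000 bases the 3 libraries were above at 8, among the 39 of 1000 to 2000 bases at 19 and among the 44 of 2000 to 4000 bases at 11. They were above at 6 of the 23 members of 4000 to 10000 bases and at 1 of the 5 longer ones. Controls gave 2 of these 3 libraries and air-dried leaves 1, so part of this difference enters the comparison of treatments, and its part in those results was not tested beyond the values given with them.

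**Figure D2:**
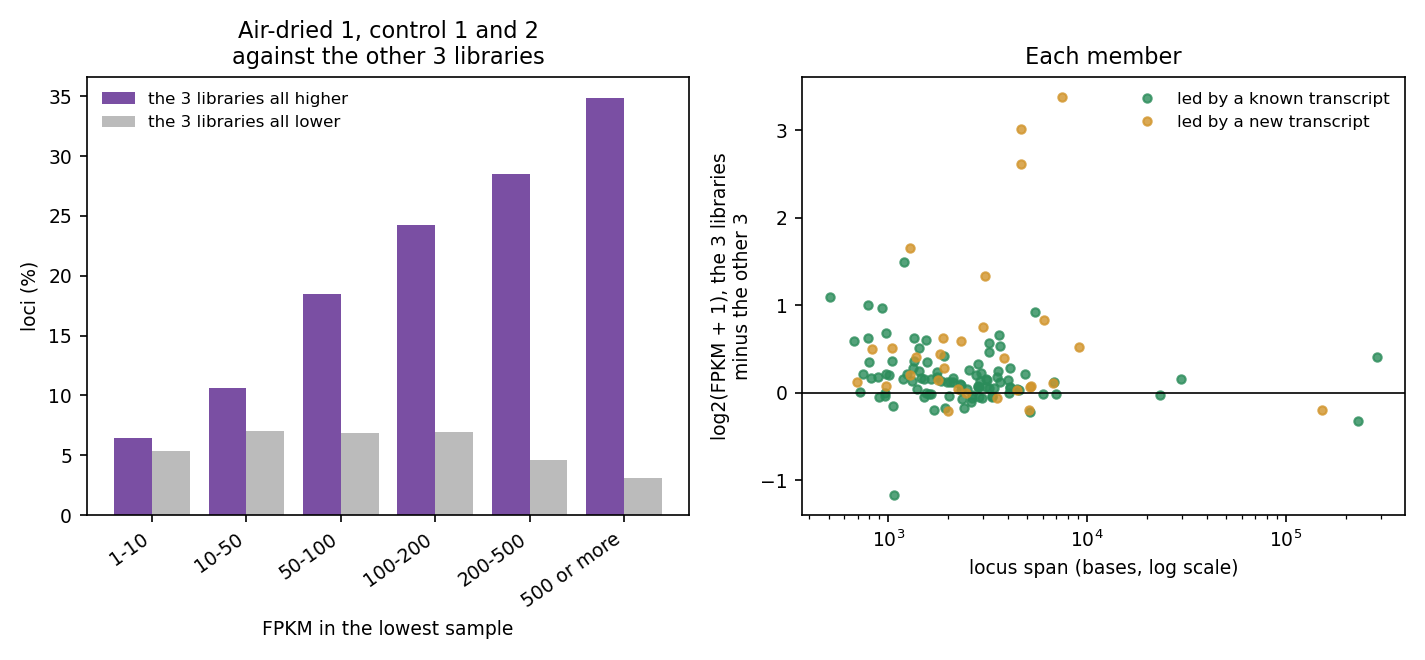
Left, the percentage of loci at which air-dried replicate 1 and control replicates 1 and 2 all lie above, or all lie below, the other 3 libraries, by the FPKM of the lowest sample; the share above rises over the bands, from 6.43% to 34.9%. Right, for each member, the mean log2(FPKM + 1) of these 3 libraries minus that of the other 3, against locus span on a log axis; most members lie above 0.

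Air-dried and control leaves were compared by limma on log2(FPKM + 1) over all 22835 loci that averaged at least 1 FPKM. A locus was called when its Benjamini-Hochberg adjusted p over all of them was under 0.05. Most members were not called: 4 of the 129 passed, 2 higher and 2 lower in air-dried leaves. That is 3.10% of the members, against 6.78% of all tested loci, of which 4.16% were higher and 2.61% lower. At an unadjusted p under 0.05 there were 15 members, 5 higher and 10 lower, or 11.6% against 22% of all tested loci.

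POPTR_0005s08050.r1 (chromosome 5, 5540200 to 5543793, minus strand) had 689, 614 and 600 FPKM in air-dried leaves and 2064, 2024 and 1965 FPKM in control leaves. All air-dried samples were low, all controls were high, and the gap between the groups was far wider than the spread within either. The means were 634 ± 48.1 FPKM in air-dried leaves and 2018 ± 49.9 FPKM in control leaves (SD, n = 3 each), 3.18-fold higher in control leaves. The log2 fold change was -1.67 with a standard error of 0.13 (limma adjusted p = 0.00326). The known transcript POPTR_0005s08050.1 carried 96.9% of its FPKM. The call was kept without any single sample and was lost only under quantile normalization, with limma adjusted p of 0.536.

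POPTR_0001s34950.r1 (chromosome 1, 33205142 to 33208765, plus strand) also fell, with 1186, 1074 and 994 FPKM in air-dried leaves and 2163, 2166 and 1693 FPKM in control leaves. Control replicate 3 was the lowest control and still lay above every air-dried sample. The log2 fold change was -0.88 with a standard error of 0.18 (limma adjusted p = 0.0483). Of its 12 listed transcripts, the known POPTR_0001s34950.4 carried 65.2% of the FPKM. This call was near the threshold: leaving out any single sample ended it, with limma adjusted p of 0.0592 to 0.204.

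POPTR_0007s14570 (chromosome 7, 14318437 to 14320123, plus strand), a single known transcript, rose, with 1102, 1003 and 978 FPKM in air-dried leaves and 555, 575 and 543 FPKM in control leaves. Every air-dried sample was at least 1.5 times every control. The means were 1028 ± 65.6 FPKM in air-dried leaves and 557 ± 16.0 FPKM in control leaves (SD, n = 3 each), a ratio of 1.84. The log2 fold change was 0.88 with a standard error of 0.11 (limma adjusted p = 0.0118). It was not called without air-dried replicate 2 or 3 or control replicate 2, with limma adjusted p of 0.0807, 0.0676 and 0.0583, nor under quantile normalization, with limma adjusted p of 0.275. With a sample left out its log2 fold change stayed between 0.83 and 0.91.

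POPTR_0010s05170.r1 (chromosome 10, 6603073 to 6605468, minus strand) rose as well, with 1024, 982 and 1032 FPKM in air-dried leaves and 667, 649 and 636 FPKM in control leaves. Both groups were tight and did not overlap. The means were 1013 ± 27.0 FPKM in air-dried leaves and 650 ± 15.5 FPKM in control leaves (SD, n = 3 each), a ratio of 1.56. The log2 fold change was 0.64 with a standard error of 0.10 (limma adjusted p = 0.0261). The call was kept without control replicate 1 and lost without any other single sample, with limma adjusted p of 0.0755 to 0.133. Known transcripts carried 97.2% of its FPKM, and neither this locus nor the other 3 that were called overlapped a locus with a mean of at least 10 FPKM.

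The next 4 members by p were not called and are named after their values were seen. POPTR_0011s11960 had 1112, 637 and 542 FPKM in air-dried leaves and 3678, 3247 and 1725 FPKM in control leaves. This was the most negative log2 fold change of any member, -1.91 with a standard error of 0.41 (limma adjusted p = 0.0585), and replicate 3 was the lowest in both groups. It overlapped 644 bases of POPTR_0011s11970.r1 on the opposite strand, which had a mean of 99.7 FPKM. POPTR_0006s08530.r1 had 1790, 1727 and 1589 FPKM in air-dried leaves and 3771, 3443 and 2495 FPKM in control leaves, with a log2 fold change of -0.91 (limma adjusted p = 0.0869). POPTR_0005s25540.r1 had 1974, 1992 and 1852 FPKM in air-dried leaves and 1195, 1319 and 1305 FPKM in control leaves, with a log2 fold change of 0.61 (limma adjusted p = 0.0727). The groups did not overlap in any of these, nor in the remaining one, POPTR_0017s06920.r1, whose values are given above. Their choice by small p makes this likely. All 4 were called in a test without the loci under 300 bases, which made 3 higher and 5 lower.

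**Figure D3:**
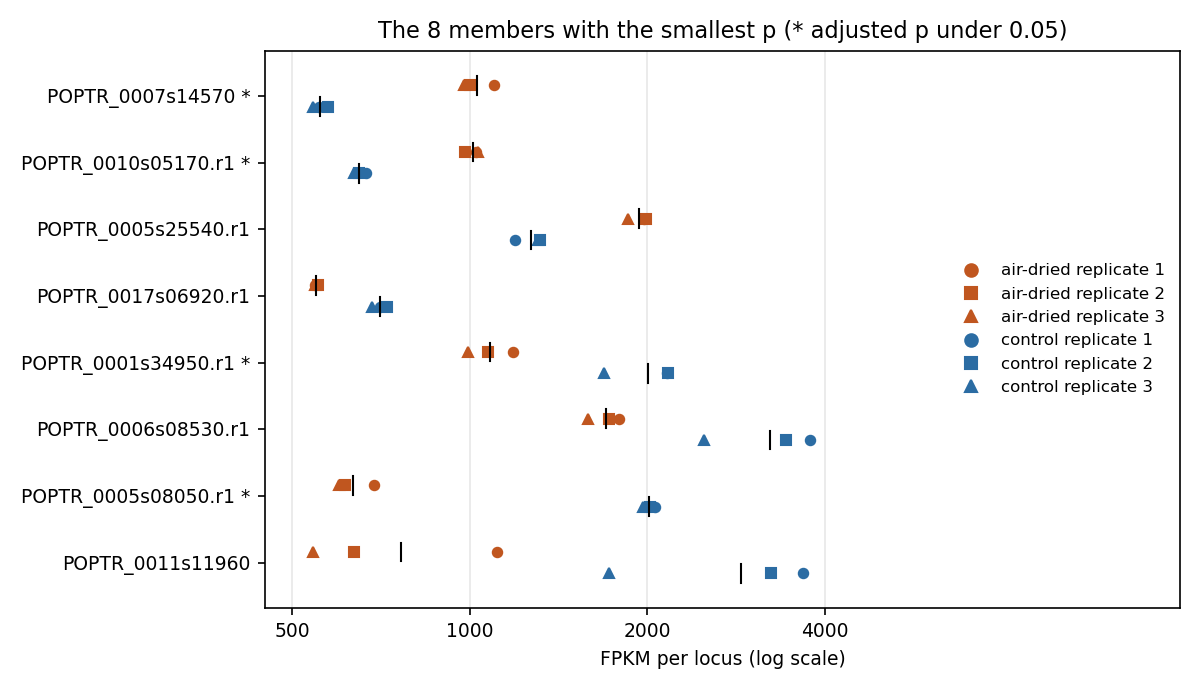
FPKM per locus on a log axis in the 3 air-dried and 3 control samples for the 8 members with the smallest p, with a tick at each group's mean and an asterisk at the 4 with a limma adjusted p under 0.05. The air-dried and control points do not overlap at any of the 8, which a choice by smallest p makes likely. POPTR_0005s08050.r1 has the widest gap relative to its spread.

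The groups were apart without a call at more members than these. All 3 air-dried values lay above all 3 control values at 15 members, or 11.6%, against 17% of all tested loci. All 3 lay below at 31 members, or 24.0%, against 13.3% of all tested loci. Of these 46 members, 42 were not called. Against control replicates 2 and 3 alone, 16 members lay above and 41 below, while 23.5% of all tested loci lay above and 18.2% below. Abundant loci outside the members showed like shares. All 3 air-dried values lay below all 3 controls at 23.6% of tested POPTR_ loci of at least 300 bases whose lowest sample had 200 to 500 FPKM, at 21.8% of those from 100 to 200 FPKM and at 22.6% of those from 50 to 100 FPKM.

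The members leaned towards lower values in air-dried leaves by a small amount. The log2 fold change was below 0 at 88 members and above 0 at 41, with a median of -0.11, against 0.0066 over all tested loci. The bands of like loci at 200 to 500, 100 to 200 and 50 to 100 FPKM had medians of -0.075, -0.055 and -0.052, so the lean was not confined to the members. Without control replicate 1 the median was -0.058, against 0.015 over all tested loci. With a term for the 3 libraries that were high at short loci it was -0.051, against 0.019. Scaling each sample by a size factor gave -0.12, against -0.0013, and scaling to equal sums gave -0.091, against 0.022. Under quantile normalization it turned to 0.80, against 0.0079, so its direction held under the other scalings and not under this one.

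Most members differed little between the groups in size. The median absolute log2 fold change was 0.16 at members and 0.21 over all tested loci. Bands of like loci at 50 to 100, 100 to 200 and 200 to 500 FPKM had 0.17, 0.17 and 0.18, so the small size was not particular to the members. It was at least 0.5 at 14 members, 4 higher and 10 lower, and at least 1 at 3 members, all lower: POPTR_0011s11960, POPTR_0005s08050.r1 and POPTR_0017s05680.r1. POPTR_0017s05680.r1 had a log2 fold change of -1.18 with a standard error of 1.54, smaller than its own error (limma adjusted p = 0.698). Without control replicate 1 its log2 fold change was 0.084 and under quantile normalization 0.80, so its direction turned. The member with the highest mean, POPTR_0001s41080.r1, had a log2 fold change of 0.11 with a standard error of 1.34 (limma adjusted p = 0.970), an error wider than a 2-fold change.

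**Figure D4:**
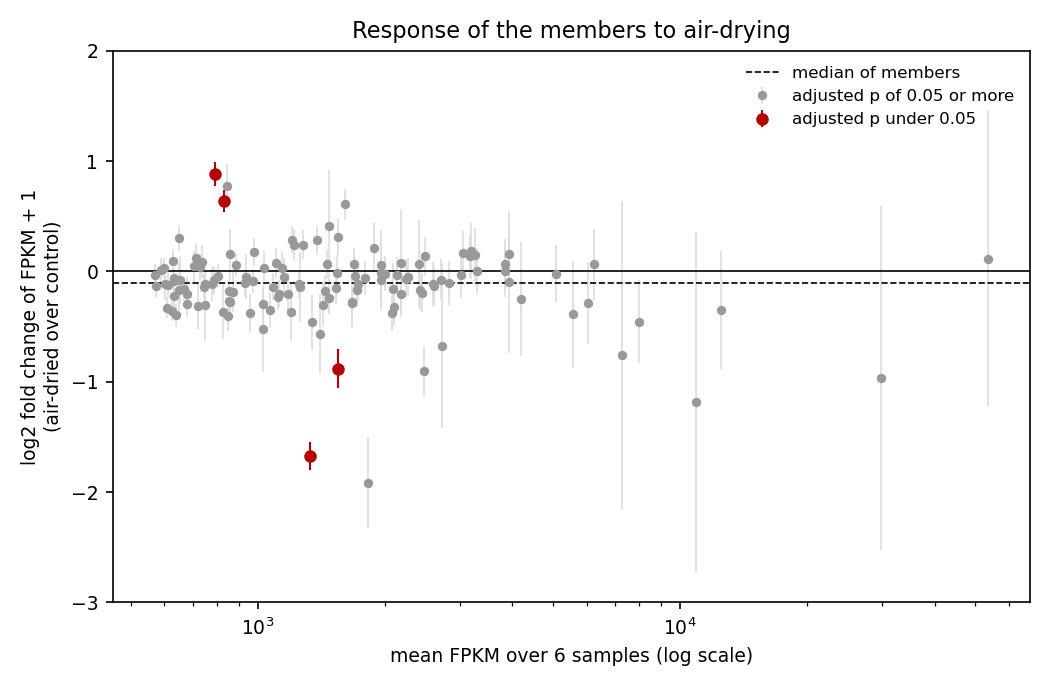
The log2 fold change of FPKM + 1, air-dried over control, of each of the 129 members against its mean FPKM over the 6 samples on a log axis, with the 4 called members marked. Most points lie between -0.5 and 0.5, and more lie below 0 (88) than above it (41).

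The fitted error was larger at the members, while the spread between samples was not. The SD of log2(FPKM + 1) within groups had a median of 0.115 at members, against 0.114 at tested POPTR_ loci whose lowest sample had 100 to 200 FPKM and 0.113 at those with 200 to 500 FPKM. The fitted standard error of the log2 fold change had a median of 0.167 at members, against 0.0989 and 0.109 in these bands. The shares called in these bands were 9.03% and 7.39%. limma takes part of each error from a trend over loci of like mean level, and at the highest levels that trend included the loci under 300 bases. With those left out the members' median standard error was 0.129 and 8 were called, 6.2% of the members against 8.15% of all loci in that fit. With no trend it was 0.102 and 7 were called, 3 higher and 4 lower, which is 5.43% of the members against 6.22% of all loci.

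Loci that were abundant on average but not in every sample were left out by the rule. Of POPTR_ loci of at least 300 bases, 82 had a mean of at least 500 FPKM but a lower value in at least 1 sample, so some reached that mean through the group or library where they were high. Of these 82, 4 were called, against 6.78% of all tested loci. A locus could enter this set through the group where it was high. The calls are therefore tied to the mean rule, and the shares are not compared. POPTR_0005s10850.r1 fell, with 296, 302 and 295 FPKM in air-dried leaves and 740, 769 and 724 FPKM in control leaves, a log2 fold change of -1.32. POPTR_0019s00660.r1 rose, with 1519, 1145 and 1172 FPKM in air-dried leaves and 341, 499 and 249 FPKM in control leaves, a log2 fold change of 1.86. POPTR_0014s15710.r1 and POPTR_0002s19010.r1 also rose, by log2 fold changes of 1.00 and 0.86. In 51 of the 82, control replicate 1 had the highest value, and 26 would have a mean under 500 FPKM without it.

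The members' FPKM came from 431 listed transcripts, 186 known and 245 new. A single known transcript made up 37 members, several transcripts led by a known one made up 62, and a new transcript led 30, among them the 4 members with no known transcript. Known transcripts carried at least 90% of the FPKM at 76 members and under 10% at 14. From known transcripts alone, 93 members kept at least 500 FPKM in every sample and 36 did not.

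Members led by a new transcript ranged more widely across the samples, a description for which no test was made. The median ratio of the highest to the lowest sample was 1.56 in these 30, against 1.26 in the 37 with a single known transcript and 1.32 in the 62 with several led by a known one. It was at least 2 at 10, 5 and 6 members of these classes. The 3 libraries named above lay above the other 3 at 15 of the 30 led by a new transcript, at 12 of the 37 and at 18 of the 62. None of the 30 was called, 1 of the 37 was called higher, and 1 higher and 2 lower among the 62. With 3.10% of all members and 6.78% of all tested loci called, these counts are too small to compare the classes.

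**Figure D5:**
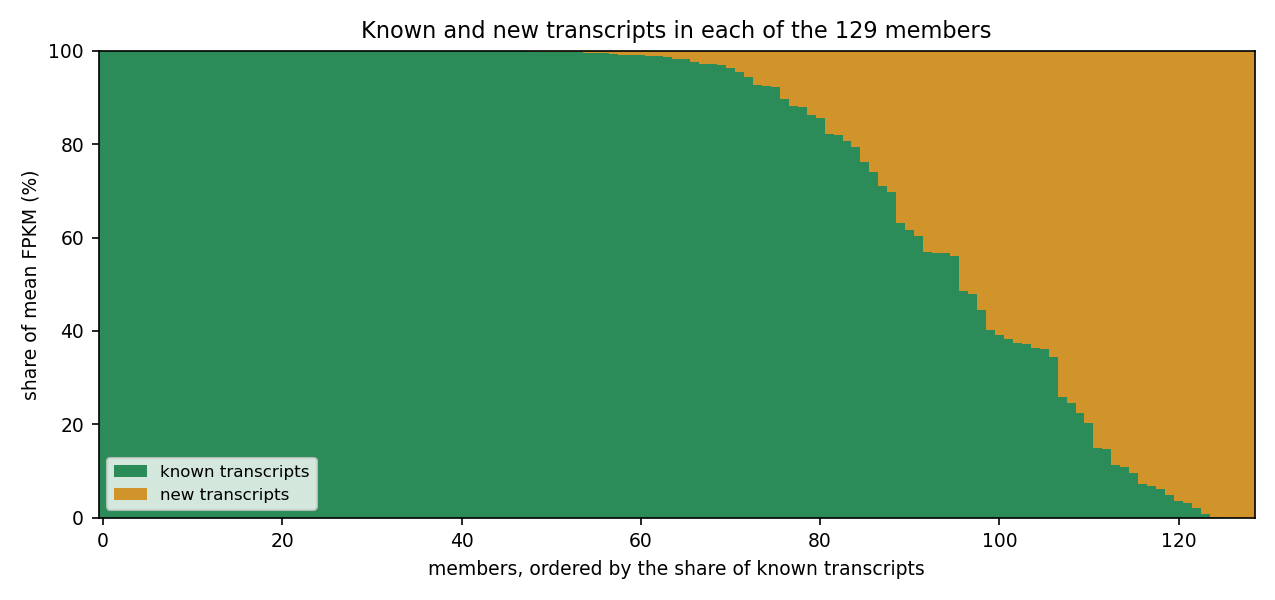
The share of mean FPKM in percent carried by known and by new transcripts in each of the 129 members, ordered by the known share. At 76 members the known share is at least 90%, and at 14 it is under 10%.

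The division between transcripts was steady at most members and not at others. Of 89 members with several transcripts, 71 had the same leading transcript in all 6 samples and 18 did not. In the 71 the share of the leading transcript had a median lowest value of 89.3% and a median highest value of 98.6%. In the 18, which a large swing in share sets apart by definition, the total ranged by a median of 1.32-fold, while the share of the leading transcript had a median lowest value of 27.8% and a median highest value of 69.7%. In POPTR_0004s01510.r1, which had 1720, 1630 and 1491 FPKM in air-dried leaves and 1913, 1776 and 1755 FPKM in control leaves, the known transcript held 94.7%, 25.7% and 49.1% in air-dried leaves and 86.0%, 100% and 0% in control leaves. The control samples alone thus spanned the whole possible range at a nearly constant total.

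POPTR_0015s07340.r1 showed the same with known transcripts of equal coordinates. POPTR_0015s07340.5 held 78.4%, 50.2% and 30.7% of the locus in air-dried leaves and 81.9%, 70.1% and 17.2% in control leaves. POPTR_0015s07340.4 held 19.7%, 48.1% and 67.8% in air-dried leaves and 16.2%, 28.3% and 81.4% in control leaves. Both groups covered a wide range, and replicate 3 had the lowest share of POPTR_0015s07340.5 in each. Values of single transcripts of such loci are therefore uncertain, and sums over the locus are used throughout.

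Some member loci covered long stretches while a short transcript carried their signal. POPTR_0003s17010.r1 spanned 289107 bases of chromosome 3 (16232723 to 16521829), but a known transcript of 1655 bases carried nearly all of its FPKM. It had 939, 833 and 724 FPKM in air-dried leaves and 1169, 1171 and 913 FPKM in control leaves, and the groups overlapped. POPTR_0005s22830.r1 spanned 23184 bases, with 99.8% on a known transcript of 1805 bases. It had 2169, 2333 and 2183 FPKM in air-dried leaves and 2172, 2393 and 2362 FPKM in control leaves. A locus without a POPTR_ identifier on the opposite strand, with a mean of 942 FPKM, overlapped its span by 400 bases.

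Other long loci rested on the long transcript itself. POPTR_0014s19660.r1 (chromosome 14, 17519728 to 17672115) had 95.4% of its FPKM on a new transcript covering all 152388 bases, with 3126, 2200 and 1930 FPKM in air-dried leaves and 2115, 1510 and 3584 FPKM in control leaves. Its highest and lowest samples were both controls. POPTR_0005s15660.r1, which spanned 229736 bases, was divided between a known transcript of 1493 bases, with 71.1% of its mean FPKM, and a new one of the whole span.

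The shortest members after POPTR_0010s16050 and POPTR_0006s08530.r1, at 691 to 747 bases, were POPTR_0001s26410.r1, POPTR_0004s22810 and POPTR_0018s07160. POPTR_0001s26410.r1 had 2070, 1897 and 2100 FPKM in air-dried leaves and 2141, 2617 and 2251 FPKM in control leaves, all from new transcripts. It shared 359 bases with POPTR_0001s26410 on the opposite strand, which had a mean of 410 FPKM. The division of reads between them is uncertain. POPTR_0004s22810 had 1795, 1974 and 1811 FPKM in air-dried leaves and 2304, 2182 and 2504 FPKM in control leaves. POPTR_0018s07160 had 855, 698 and 727 FPKM in air-dried leaves and 789, 736 and 623 FPKM in control leaves. The air-dried samples lay below all controls in the first 2 of these and overlapped them in POPTR_0018s07160, and none was called.

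Overlaps with other loci were counted for the members only, so whether they were more frequent than elsewhere was not tested. Of the 129 members, 27 overlapped another listed locus, 25 of them one on the opposite strand, and 22 overlapped one with a mean of at least 10 FPKM. Of these, 6 members overlapped another member, in 3 pairs: POPTR_0001s41080 with POPTR_0001s41080.r1, POPTR_0007s04380.r1 with POPTR_0007s04380.r2, and POPTR_0004s01470.r1 with POPTR_0004s01510.r1. The last pair shared 933 bases, and POPTR_0004s01470.r1 had 1085, 1002 and 1011 FPKM in air-dried leaves and 1159, 1188 and 1063 FPKM in control leaves.

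Another 2 pairs of members were neighbours without overlap. POPTR_0010s16060 lay 14328 bases from POPTR_0010s16050 on the same strand of chromosome 10, with 1271, 920 and 920 FPKM in air-dried leaves and 1625, 1468 and 967 FPKM in control leaves. POPTR_0010s16050 was likewise highest in control replicate 1 and low in replicate 3 of both groups. A locus without a POPTR_ identifier, with a mean of 253 FPKM, overlapped both of them. POPTR_0015s07330.r1 lay 4275 bases from POPTR_0015s07340.r1 on chromosome 15, with 813, 812 and 777 FPKM in air-dried leaves and 933, 910 and 870 FPKM in control leaves. Its groups did not overlap (log2 fold change -0.18, limma adjusted p = 0.400), while those of POPTR_0015s07340.r1 did.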

How the data were processed

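Poly(A)-selected RNA of 3 air-dried and 3 control leaf samples, grouped by the labels, was sequenced with a TruSeq RNA kit as 100 base read pairs, per the labels' protocols. Per the file headers, the authors deposited an FPKM value for each transcript. FastQC, TopHat and Cufflinks are named in the submitters' processing notes. Versions, genome build and annotation: not given in the sources used here. The files hold no counts, so the depth behind each value is unknown.

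FPKM values were summed per locus. Differences were tested with limma 3.58.1 in R 4.3.3 on log2(FPKM + 1), which understates changes of low loci, with a variance trend over the mean and without a block, over the 22835 loci that averaged at least 1 FPKM. The threshold was a Benjamini-Hochberg adjusted p of 0.05. The script was tested on simulated data.

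Loci were named by a rule: the 15 highest means, all called members, the 5 smallest and 5 largest spreads and spans, neighbours, and the 3 loci on each side of the threshold. Product lists and cell type markers could not be applied, since no identifier has a gene name. Members, lists and tests were chosen with earlier results of these data known. Alternatives covered pseudocount, filter, scaling, variance, weights, block, transcripts, member rule and each sample left out.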

Additional observations from a re-analysis of the deposited data

How the results depend on the processing

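The median log2 fold change of the members kept its sign and moved by less than the spread between replicates under every alternative but quantile normalization, which gave 0.80. Of all tested loci 1548 were called. Known transcripts alone gave 727 and sample weights 3371, and leaving out a sample gave 376 to 1738. Of the members, 2 were called higher. Quantile normalization gave 0, leaving out a sample 0 to 2, a rule of 250 FPKM 8, a rule of 1000 FPKM 0 and a rule on the mean 5. Of the members, 2 were called lower. Quantile normalization and a rule of 1000 FPKM gave 0, and no filter, a pseudocount of 10 and leaving out any sample gave 1. No variance trend gave 4, leaving out loci under 300 bases 5, sample weights 6, known transcripts alone 7 and a rule of 250 FPKM 7. Totals differed too: 308 members met the rule of 250 FPKM, and known transcripts alone tested 125 members. Over all loci, no variance trend called 1421 of 22835 and sample weights 3371 of 22835. Leaving out loci under 300 bases called 1791 of 21963, and known transcripts alone 727 of 17191. Other rules, known transcripts alone and left-out samples change how many loci or samples enter, and for the rest the cause was not tested.

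The number of members was 308 at 250 FPKM, 69 at 1000 FPKM and 211 on the mean, and 129 to 138 with a sample left out. From known transcripts alone it was 93. The ratio of summed FPKM, air-dried over control, was 0.69 to 1.03 with a sample left out. It passed 1 without control replicate 1 alone. A term for the 3 libraries high at short loci, the rule without control replicate 1 and members without a strong overlap were chosen after seeing the data, and gave 2 higher and 2 or 3 lower. Over 43 named loci and their alternatives, 779 results kept their side of the threshold, 23 lost the call and 10 gained it. The direction turned in 0 results called on either side and in 64 called on neither, 27 of them under quantile normalization and 5 with the library term. Under quantile normalization all 4 called members lost their call. POPTR_0001s34950.r1 also lost its call with no filter (limma adjusted p = 0.0851) and with a pseudocount of 10 (limma adjusted p = 0.0594).

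The replicate numbers gave no clear pairing of the samples, but 3 samples per group cannot exclude one. Same-numbered samples had correlations of their deviations of 0.082, -0.178 and 0.198 across 21963 loci, and not every sample correlated best with its own number. With a replicate block, 281 loci were called, 0 members higher and 1 lower. POPTR_0007s14570 had a limma adjusted p of 0.0641 there, POPTR_0010s05170.r1 0.0906 and POPTR_0001s34950.r1 0.0874, with 2 fewer degrees of freedom for the error.

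The unknown depth allows no counting interval. Reads of overlapping loci and of transcripts of 1 locus cannot be separated here.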
